A study of Homo sapiens with 4 samples.

Results

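The 8 genes described here carry iron into the cell, store it and let it out: TFRC, STEAP3 and SLC11A2 (uptake), FTH1, FTL and NCOA4 (storage and its release), SLC40A1 (export) and IREB2 (control). They were taken by gene name from a table of 57014 named rows, where each name stood on 1 row, and all 8 passed the filter on low counts, as did 18043 genes in all. The libraries were made from poly(A)-selected RNA of 22Rv1, a human prostate cancer cell line. The 2 control libraries are labelled wild type and carry sgGFP in their names, a guide against a gene that human cells lack, and the 2 knockout libraries carry sgCD276, with the genotype given as CD276 knockout. CD276 encodes the immune checkpoint protein B7-H3, and the comparison asks how transcript levels differ once it is targeted. The labels do not say whether the knockout cells are 1 clone or a pool, and the replicates, called biological, may share a culture, so the p-values speak only of the spread seen among these libraries.

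Cells take up iron bound to transferrin through the transferrin receptor, which is pulled in by clathrin-coated vesicles. In the acidic endosome the iron is reduced by STEAP3 and passes into the cytosol through the transporter DMT1 (SLC11A2). What is not used is stored as a mineral core inside ferritin, a shell of heavy (FTH1) and light (FTL) chains, which NCOA4 delivers to lysosomes for release; ferroportin (SLC40A1) is the exporter. Iron regulatory proteins, encoded by ACO1 and IREB2, bind a stem loop called the iron-responsive element when iron is scarce. Bound near the start of an mRNA they block its translation, as in ferritin and ferroportin, and bound after the coding sequence they protect the mRNA from decay, as in the transferrin receptor. Counts per gene read the mRNA level only, not translation.

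The stem loops found in the members are shown because those of FTH1, FTL and SLC40A1 lie before the coding sequence and those of TFRC after it. The search took a C, then 5 bases, the loop CAGTGN, and 5 bases that pair with the first 5 (A with T, G with C or T), in the sense strand of GENCODE 29 transcripts. It matched in 4 of the 8 genes, at 7 sites. Each is given as 29 bases, 5′ to 3′, with the 6 bases of the loop in capitals, and positions are on GRCh38.
FTH1, 5′ untranslated region, chr11:61967574-61967602, minus strand: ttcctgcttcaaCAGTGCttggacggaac
FTL, 5′ untranslated region, chr19:48965335-48965363, plus strand: ctcttgcttcaaCAGTGTttggacggaac
SLC40A1, 5′ untranslated region, chr2:189580661-189580689, minus strand: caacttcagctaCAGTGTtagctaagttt
TFRC, 3′ untranslated region, chr3:196050979-196051007, minus strand: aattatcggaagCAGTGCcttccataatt
TFRC, 3′ untranslated region, chr3:196050575-196050603, minus strand: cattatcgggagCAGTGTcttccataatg
TFRC, 3′ untranslated region, chr3:196050510-196050538, minus strand: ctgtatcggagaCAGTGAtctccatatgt
TFRC, 3′ untranslated region, chr3:196050463-196050491, minus strand: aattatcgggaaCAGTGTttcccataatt

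The ferritin chains had nearly the same element, with 26 of 29 bases identical, while the FTH1 and SLC40A1 sites shared 13 of 29. Among the 4 sites matched in TFRC the identity ran from 18 to 25 of 29. Of 19677 protein-coding genes searched, 0.183% held a match in a 5′ untranslated region and 0.671% in a 3′ untranslated region. SLC11A2, STEAP3, IREB2 and NCOA4 had no match, which says only that these letters and pairings were not found in their annotated transcripts. The search misses some known elements: EPAS1 and CDC42BPA, named below among mRNAs known to carry an element, had no match either. A missing match, as for SLC11A2, therefore does not show that an element is missing. The sites matched in a gene, as in TFRC, need not be all that it carries. The sites of TFRC were in 3 of its 4 coding transcripts, that of FTH1 in 7 of 8, and that of SLC40A1 in 1 of 5, and gene counts do not tell these transcripts apart.

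**Figure D1:**
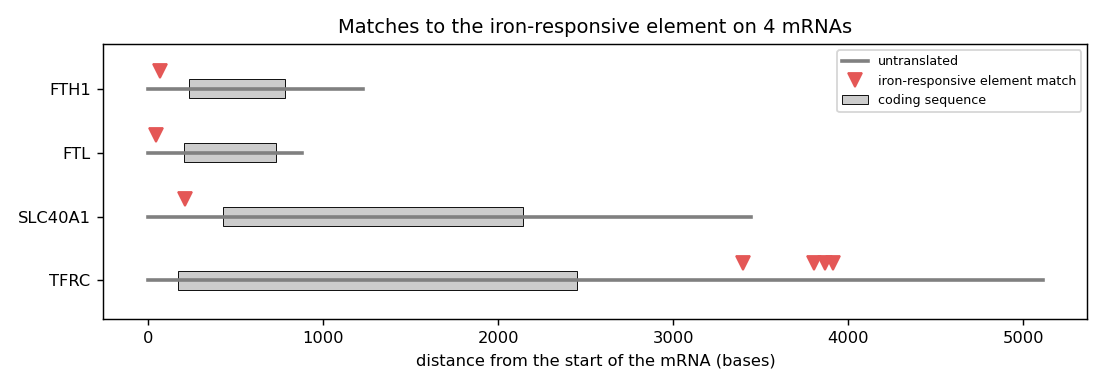
Position of the matches on 1 mRNA of each of 4 genes, in bases from the start of the mRNA; grey lines are untranslated regions, boxes the coding sequence and triangles the first base of each loop. The loop begins 70, 46 and 210 bases after the mRNA start in FTH1, FTL and SLC40A1. The 4 loops matched in TFRC begin 950 to 1466 bases after the end of the coding sequence.

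Transcripts of the receptor that brings iron in, of the ferritin heavy chain and of the receptor that delivers ferritin to lysosomes all rose in the knockout libraries. FTH1 rose 2.44-fold, TFRC 2.04-fold and NCOA4 1.87-fold. Genes were called higher or lower at a Benjamini-Hochberg adjusted p under 0.05, from the quasi-likelihood test of edgeR over all 18043 genes. By that rule 3 of the 8 members were higher, 0 were lower and 5 were not called, where 9.87% of all genes were called higher and 12.9% lower (22.8% in either direction). Before adjustment, 4 members were higher and 0 lower at p under 0.05 in edgeR, beside 17.9% and 20.9% of all genes. DESeq2 called 4 higher and 0 lower after adjustment, beside 6.10% and 5.90% of the 32400 genes with any count (1975 and 1912 genes). That base is wider than the 18043 genes of edgeR and holds genes with very low counts, so its shares cannot be set beside those of edgeR. The 3 members were also called at an adjusted p under 0.01, where 2.00% of all genes were higher, and 4 were higher with the replicate number as a block, where 11.4% were. Without control replicate 1 or 3 and without knockout replicate 1 or 3, 0, 1, 5 and 7 members were called higher and 0 lower, beside 0.238%, 0.793%, 22.2% and 25.2% of all genes higher and 1.41%, 2.35%, 23.4% and 23.1% lower. The median log2 fold change of the members was 0.52, beside -0.00451 for all genes tested. Both knockout libraries lay above both controls for 6 of the 8 members, which held for 31.8% of all genes. In bulk RNA, more cells with a transcript and more transcript per cell cannot be told apart.

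**Figure D2:**
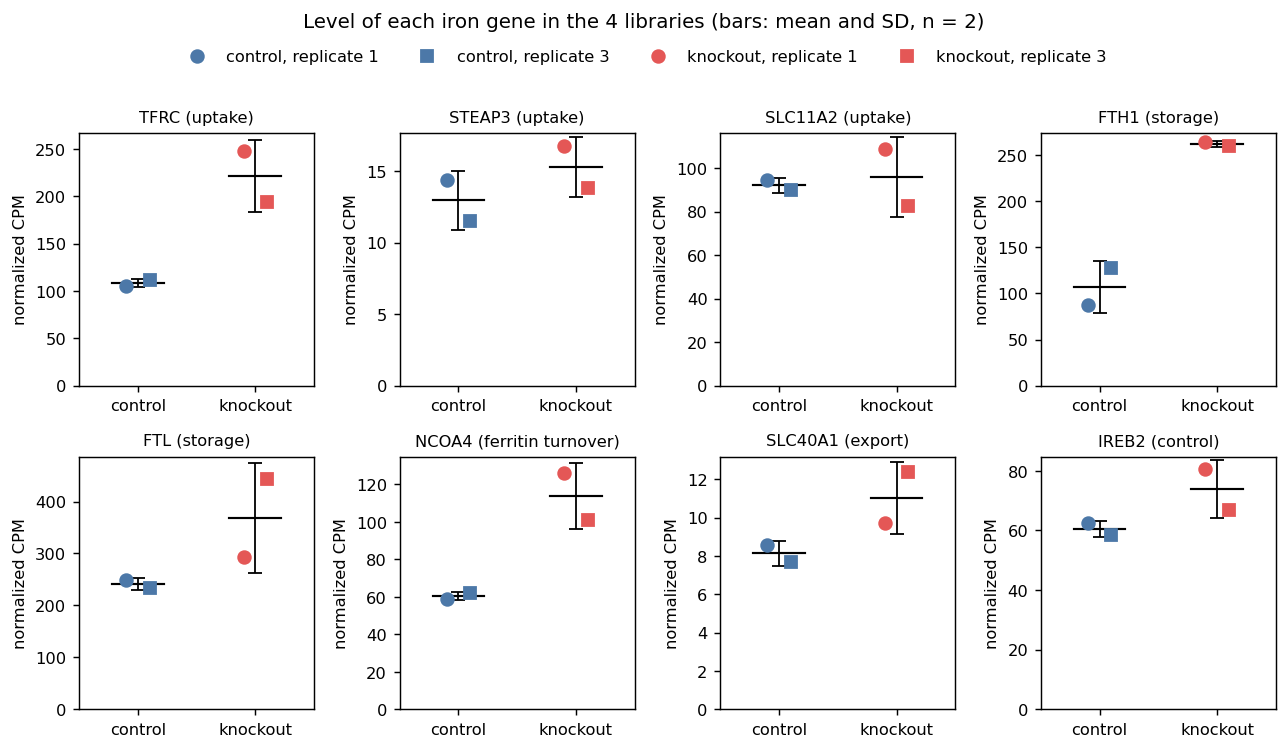
Normalized CPM, counts scaled to 1e6 of the TMM-adjusted library size, of the 8 genes in the 2 control and 2 knockout libraries, with points for libraries, shapes for replicate numbers, and bars for the mean and SD (n = 2). TFRC, FTH1 and NCOA4 stand well above the controls in both knockouts, FTL is apart mainly in knockout replicate 3, and SLC11A2 and STEAP3 overlap.

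The libraries held 20079050 to 25802417 counts on named rows, so that 1 CPM stood for 20.1 to 25.8 counts. CD276 itself fell from 50.9 ± 4.98 to 24.95 ± 1.84 normalized CPM (mean ± SD, n = 2; edgeR adjusted p = 0.00561). All 8 prostate luminal markers passed the filter, with a summed level in normalized CPM of 3599 and 3699 in the controls against 2943 and 3644 in the knockouts; KRT18 was called lower. Of 9 markers of blood cells, fibroblasts and liver, 6 passed the filter and COL1A1 and ALB were called lower. HBA2, HBA1, CD14 and COL1A2 were not called. The globin gene HBA2 had 866 and 978 counts in the controls against 504 and 950 in the knockouts, and HBA1 105 and 84 against 72 and 143. PTPRC, HBB and CD163 had at most 6 counts in a library. That list summed to 424 to 469 normalized CPM in the controls and 277 to 302 in the knockouts, mostly from ALB at 203 to 374, and its part in the results was not tested. Genes of the mitochondrial genome took 5.84% and 6.15% of control counts and 1.46% and 1.78% of knockout counts, and the nuclear RNA MALAT1, picked with its values already seen, fell from 2455 ± 280 to 482 ± 125 normalized CPM. Without the mitochondrial genes the log2 fold changes of TFRC, FTH1 and NCOA4 were 1.03, 1.29 and 0.91.

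Among the uptake genes, TFRC (chromosome 3, 196027183 to 196082189, minus strand), the transferrin receptor, had 2353 and 2161 counts in control replicates 1 and 3 and 6520 and 5034 in knockout replicates 1 and 3. As normalized CPM these were 105 and 112 against 248 and 195. Both knockouts were high, replicate 1 more so, and the groups did not overlap. The level rose from 108.5 ± 4.38 to 221 ± 37.97 normalized CPM, a log2 fold change of 1.03 ± 0.16 (SE; edgeR adjusted p = 0.00591), with a 95% interval of 1.59 to 2.63-fold. A change at least as large upwards was seen in 4.35% of all genes tested. TFRC shares no annotated exon with another gene, and 0.0% of the 50-base windows of its mRNA occur in transcripts of another gene. The call was lost without control replicate 1 (adjusted p = 0.104) and without control replicate 3 (0.0605), at log2 fold changes of 0.99 and 1.07; its alternatives gave adjusted p of 3.03e-36 to 0.104.

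The window upstream of TFRC is shown because the gene rose and one of the 3 motifs searched lies in it. In the 250 bases before the RefSeq start (GRCh38.p14, chr3:196082091-196082340, minus strand) the core motif of hypoxia-inducible factors, ACGTG, occurred 1 time, 88 bases before the start, in capitals here. On either strand 18.5% of 35116 promoters of this length hold it. Neither CACGTG, an E-box (in 6.34% of promoters), nor TGACNNNGC, the core of the antioxidant response element (10.9%), was found in this window or in those of FTL, SLC11A2, SLC40A1, STEAP3, IREB2 and NCOA4, and ACGTG was also in that of FTL. A match is a description of letters, not of binding.
TFRC: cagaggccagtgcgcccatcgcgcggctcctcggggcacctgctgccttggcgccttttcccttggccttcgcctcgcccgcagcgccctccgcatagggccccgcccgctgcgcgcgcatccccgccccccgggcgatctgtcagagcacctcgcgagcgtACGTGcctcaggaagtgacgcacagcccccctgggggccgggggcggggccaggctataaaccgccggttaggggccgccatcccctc

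SLC11A2 and STEAP3, which act after the receptor in the endosome, did not pass the test. SLC11A2 (chromosome 12, 50979401 to 51028566, minus strand), the iron transporter DMT1, lay at 94.7 and 89.8 normalized CPM in the controls against 109 and 82.8 in the knockouts, so that one knockout lay above and the other below both controls. Its log2 fold change was 0.06 ± 0.16 (edgeR adjusted p = 0.829), and the 95% interval ran from 0.806 to 1.34-fold. The fit without knockout replicate 1 turned its direction (-0.14), as did offsets for GC content and length (-0.034), and the fit without knockout replicate 3 called it higher (0.31, adjusted p = 0.00552); its alternatives gave adjusted p of 0.00552 to 0.978. STEAP3 (chromosome 2, 119223831 to 119265652, plus strand), the endosomal ferrireductase, was at 14.4 and 11.5 in the controls against 16.8 and 13.8 in the knockouts, with overlapping groups. Its log2 fold change was 0.24 ± 0.20 (adjusted p = 0.419; 0.858 to 1.62-fold), and it was called without knockout replicate 3 (0.43, adjusted p = 0.0151; 0.0151 to 0.918 over all alternatives). STEAP3 shares 11% of its exonic bases with STEAP3-AS1 on the opposite strand.

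FTH1 (chromosome 11, 61959718 to 61967660, minus strand), the ferritin heavy chain with the ferroxidase site, had the largest log2 fold change of the 8 genes. It had 1948 and 2461 counts in control replicates 1 and 3 and 6921 and 6702 in knockout replicates 1 and 3. As normalized CPM these were 87.2 and 127 against 264 and 259. The knockouts were nearly equal and far above both controls, while the controls differed from each other. The level rose from 107 ± 28.2 to 261 ± 3.17 normalized CPM (1.29 ± 0.19, edgeR adjusted p = 0.00507), a 95% interval of 1.81 to 3.29-fold, and 2.02% of all genes had as large a rise. Without control replicate 1 the value was 1.04 and the call was lost (adjusted p = 0.0845; 3.83e-27 to 0.0845 over all alternatives).

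FTL (chromosome 19, 48965301 to 48966878, plus strand), the light chain that favours the mineral core, had the most counts of the members and did not pass the test. It lay at 248.9 and 232.7 normalized CPM in the controls against 293 and 443 in the knockouts. Both knockouts lay above both controls, replicate 1 slightly and replicate 3 clearly. The level was 241 ± 11.5 and 368 ± 106 (log2 fold change 0.61 ± 0.20, edgeR adjusted p = 0.0607; 1.11 to 2.11-fold). It passed in 7 of 18 alternatives, among them DESeq2 (0.65, adjusted p = 0.00895), library totals alone (0.71, 0.0289) and offsets for GC content and length, which moved the log2 fold change to 1.08 (adjusted p = 0.00515); its alternatives gave adjusted p of 7.48e-17 to 0.369. The log2 fold change was 0.35 without knockout replicate 3 and 0.89 without knockout replicate 1.

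Ferritin counts are uncertain because of pseudogenes and of an overlapping gene. Of the 50-base windows of the FTH1 mRNA, 40.4% occur in transcripts of another gene, mainly its processed pseudogenes, and of 150-base windows, the length of 1 read, 0.7%. For FTL the shares were 18.3% and 0.0%. The table has 25 rows named as FTH1 pseudogenes and 16 as FTL pseudogenes, of which 4 and 1 passed the filter. Summed, the FTH1 pseudogene rows had 93 and 67 counts in the controls against 41 and 68 in the knockouts, which is 4.77% and 2.72% of the FTH1 counts in the controls against 0.592% and 1.01% in the knockouts. The FTL pseudogene rows had 65 and 42 counts in the controls against 33 and 40 in the knockouts, at most 1.17% of the FTL counts. FTH1P20 (1.19 ± 0.22 to 0.288 ± 0.030 normalized CPM, log2 fold change -2.03 ± 0.52, adjusted p = 0.0265) and FTH1P3 (-2.62 ± 0.68, adjusted p = 0.0270) fell, opposite to their parent, on at most 30 counts in a library. FTLP14 (-1.22 ± 0.41, adjusted p = 0.0615), FTH1P16 (-0.39 ± 0.59, 0.665) and FTH1P2 (0.10 ± 0.61, 0.925) were not called. Adding the pseudogene rows to their parents gave 1.25 for FTH1 (adjusted p = 0.00521) and 0.60 for FTL (0.0637).

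FTH1 also shares 62.4% of its exonic bases with BEST1, a chloride channel gene on the opposite strand, chosen after its values were seen. All of the 3′ untranslated region of the FTH1 mRNA lies inside BEST1 exons (100%), as does 79.2% of its coding sequence, but none of its 5′ untranslated region (0.0%). Where strand was not used, reads of these stretches fit both genes, and the sources used here do not give the strand setting. The BEST1 row was small, with 96 and 62 counts in the controls against 43 and 52 in the knockouts. It fell (-1.04 ± 0.32, edgeR adjusted p = 0.0498). The rows of FTH1 and BEST1 summed rose by 1.25 (edgeR adjusted p = 0.00512). BEST1 is so small beside FTH1 that this sum could hardly differ from FTH1 alone. Reads that fit both genes may have been left out of both rows, and the sum cannot show them. The FTH1 counts may then come from part of the gene only. Among nuclear protein-coding genes with over 50% of their exonic bases shared with the opposite strand, 16.8% of 107 were called higher and 15.0% lower, with a median log2 fold change of 0.01, against 12.4% and 10.7% of the 8266 without such sharing, with a median of 0.08. The part of the overlap in the FTH1 result was not tested.

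NCOA4 (chromosome 10, 46005088 to 46030714, minus strand), the cargo receptor that takes ferritin to lysosomes, had 1320 and 1205 counts in control replicates 1 and 3 and 3311 and 2620 in knockout replicates 1 and 3. As normalized CPM these were 59.1 and 62.2 against 126.1 and 101.3. As for TFRC, both knockouts were above both controls and replicate 1 was the higher. The level rose from 60.7 ± 2.19 to 114 ± 17.5 normalized CPM (0.91 ± 0.15, edgeR adjusted p = 0.00699), a 95% interval of 1.47 to 2.38-fold, and 6.09% of all genes had as large a rise. Without control replicate 1 or 3 the call was lost (0.87 and 0.94, adjusted p = 0.137 and 0.0808; 5.56e-28 to 0.137 over all alternatives). NCOA4 shares no annotated exon, and 5.5% of its 50-base windows and 0.0% of its 100-base windows occur in its pseudogenes.

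SLC40A1 and IREB2, on the export and control side, were above the controls in both knockouts without passing the test. SLC40A1 (chromosome 2, 189560579 to 189583758, minus strand), ferroportin, had few counts, 192 and 149 in the controls against 255 and 320 in the knockouts. SLC40A1 was at 8.14 ± 0.64 and 11.04 ± 1.88 normalized CPM (0.44 ± 0.21, edgeR adjusted p = 0.169; 0.965 to 1.90-fold). It was called without knockout replicate 1 (0.61, adjusted p = 0.00269; 0.00269 to 0.631 over all alternatives). IREB2 (chromosome 15, 78437431 to 78501456, plus strand), iron regulatory protein 2, lay at 62.4 and 58.5 normalized CPM in the controls against 80.7 and 67.0 in the knockouts, a narrow gap. Its log2 fold change was 0.29 ± 0.15 (adjusted p = 0.185; 0.968 to 1.54-fold), and it was called without knockout replicate 3 (0.48, adjusted p = 1.02e-05; 1.02e-05 to 0.669 over all alternatives).

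**Figure D3:**
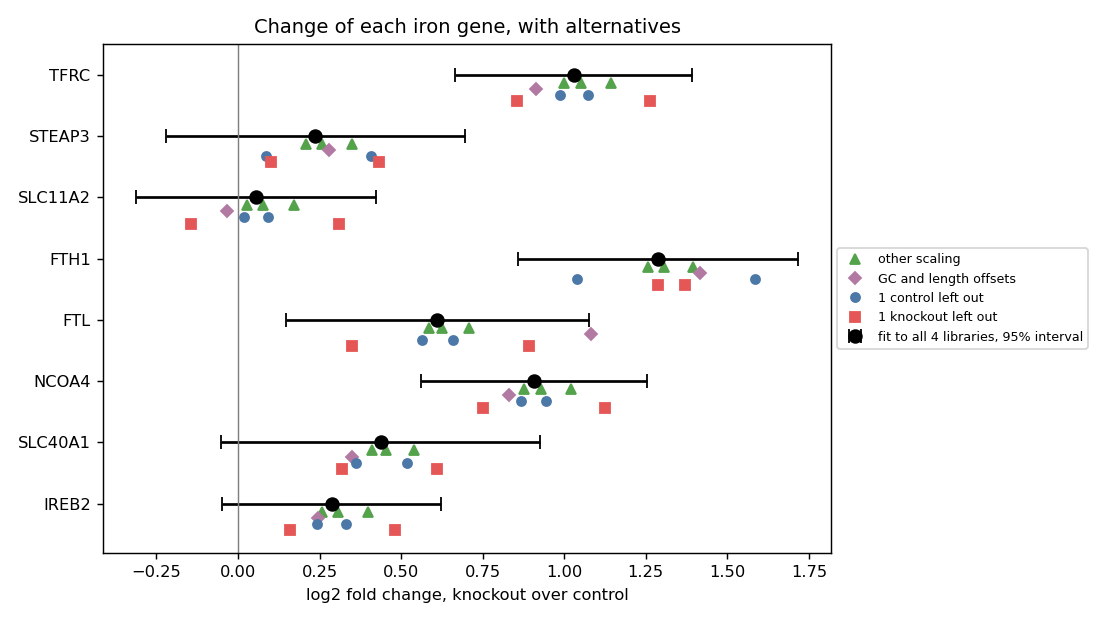
Log2 fold change of each gene, knockout over control; black points and bars are the fit to all 4 libraries with its 95% interval, and coloured marks are fits with other scalings, with GC and length offsets, or with 1 library left out. TFRC, FTH1 and NCOA4 lie at 0.75 or above in every fit drawn, FTL moves between 0.35 and 1.08, and SLC11A2 lies on both sides of 0.

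The knockout libraries did not move the members equally. Relative to the control mean, TFRC and NCOA4 were at 1.195 and 1.056 on the log2 scale in knockout replicate 1 and at 0.84 and 0.74 in replicate 3, while FTL was at 0.28 and 0.88 and SLC40A1 at 0.25 and 0.60. FTH1 was at 1.30 and 1.27. With 1 library each, these differences between the knockouts have no test.

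Per kilobase of exon, ferritin was by far the most abundant in both groups. In the controls FTL was at 274 ± 13.1 normalized CPM per kilobase, FTH1 at 52.8 ± 13.9, NCOA4 at 14.9 ± 0.54, TFRC at 13.75 ± 0.56, SLC11A2 at 9.09 ± 0.34, IREB2 at 5.60 ± 0.25, STEAP3 at 2.84 ± 0.45 and SLC40A1 at 1.88 ± 0.15. In the knockouts the order was the same but for TFRC (28.1 ± 4.81) and NCOA4 (27.9 ± 4.30), whose ranges overlapped. The length used here counts every annotated exon: 7887 bases for TFRC, 4079 for NCOA4 and 10145 for SLC11A2. The single mRNAs taken for the window search have 5111, 3549 and 4348 bases. The order of these 3 genes therefore depends on the length used. Per exonic base FTL was 6.60 and 4.23 times FTH1 in the control libraries, against 2.57 and 3.95 times in the knockouts, so that each knockout lay below both controls. These ratios count all exonic bases of FTH1, those shared with BEST1 included, and would be lower if reads of the shared bases were not counted. They also divide FTH1 by 2030 exonic bases, where its mRNA has 1229, while both lengths are 878 for FTL. With the mRNA length the ratios of FTL to FTH1 would be lower, by the same factor in every library. The ratio of TFRC to FTH1 per length was 0.311 and 0.226 in the controls against 0.242 and 0.193 in the knockouts, with overlapping groups. That of TFRC to SLC40A1 was 6.73 and 7.96 in the controls against 14.0 and 8.64 in the knockouts.

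The other iron genes are 100 genes in 9 lists, of which 99 were matched to the table and 91 tested. Of these, 16 (17.6%) were called higher and 11 (12.1%) lower, against 9.87% and 12.9% of all genes, so the share called lower was near that of all genes. Without control replicate 1 or 3 most of these calls were lost, as were most calls over all genes. Among the genes that handle the transferrin receptor on its way through the cell, 6 of the 13 tested rose and 0 fell. The other 7 had no call, and the median log2 fold change was 0.42. Before adjustment 8 and 0 had p under 0.05 in edgeR, beside 17.9% and 20.9% of all genes. DESeq2 called 6 and 0, beside 6.10% and 5.90% of the genes with any count. AP2B1, a subunit of the clathrin adaptor AP-2, rose from 62.3 ± 4.36 to 155 ± 16.6 normalized CPM (1.32 ± 0.15, edgeR adjusted p = 0.00287). CLTC, the clathrin heavy chain, rose from 179 ± 3.17 to 319 ± 55.0 (0.83 ± 0.16), and PICALM, which assembles clathrin coats, from 56.5 ± 6.12 to 97.7 ± 5.86 (0.79 ± 0.14). AP2M1, SNX3 and EXOC6, named after their values were seen, also rose. The count was 8 and 0 with library totals alone (13% of all genes higher, 9.87% lower). When control replicate 1 or 3 was left out, the calls of this list were lost but for AP2B1, at medians of 0.46 and 0.56. Without knockout replicate 1 and 3 the median was 0.52 and 0.455.

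Of the genes that sense iron or set hepcidin, 3 of 6 rose and 1 fell, beside 9.87% and 12.9% of all genes. Their median log2 fold change was 0.50. ACO1, iron regulatory protein 1, lay at 13.1 and 14.0 normalized CPM in the controls against 26.3 and 27.1 in the knockouts, a clear separation (0.98 ± 0.16, adjusted p = 0.00692), so the 2 genes for iron regulatory proteins gave 0.98 and 0.29, a difference that was not tested. SKP1, part of the ubiquitin ligase that removes iron regulatory proteins, rose from 146 ± 0.89 to 214 ± 22.3 (0.55 ± 0.14), and FBXL5, its iron-sensing subunit, named after its values were seen, was not called (0.44 ± 0.16, adjusted p = 0.0747). The other gene that rose was BMP6, also named afterwards, and TMPRSS6, a protease that restrains hepcidin, fell on 18 and 18 counts in the controls against 4 and 6 in the knockouts (-2.14 ± 0.59; not called by DESeq2, adjusted p = 0.13). DESeq2 on all libraries called 3 higher and 0 lower, beside 6.10% and 5.90% of the genes with any count. When control replicate 1 or 3 was left out, the edgeR calls of the list were lost, as were most calls over all genes. The median log2 fold changes of the list were then 0.53 and 0.47. Without knockout replicate 1 and 3 the median was 0.59 and 0.48.

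Other routes of uptake moved in both directions, with 2 of 10 higher and 2 lower, beside 9.87% and 12.9% of all genes. Their median was 0.01, and it was below 0 with upper quartile scaling, no filter or nuclear protein-coding genes alone. With 1 library left out it ran from -0.08 (without control replicate 3) to 0.305 (without knockout replicate 3), and was -0.07 without knockout replicate 1. The metal transporters SLC39A14 (39.1 ± 2.18 to 78.6 ± 23.5 normalized CPM, 1.01 ± 0.20, adjusted p = 0.0120) and SLC39A8 (81.1 ± 1.89 to 123 ± 16.6, 0.60 ± 0.15), which also carry zinc, rose. SCARA5, a ferritin receptor, fell from 6.57 ± 0.42 to 3.11 ± 0.02 (-1.08 ± 0.25). TFR2, the second transferrin receptor, named after its values were seen, fell as well (-0.52 ± 0.16, adjusted p = 0.0456), opposite to TFRC. Its call was lost with RLE scaling, library totals alone, DESeq2 and GC and length offsets, at -0.40 to -0.50 on the log2 scale. Among chaperones and ferritin turnover genes 0 of 4 rose and 1 fell by edgeR (1 and 1 at an unadjusted p under 0.05, 0 and 1 by DESeq2): PCBP2, which hands iron to ferritin, from 717 ± 13.3 to 462 ± 65.8 (-0.64 ± 0.17), while PCBP1 was at -0.32 ± 0.16 and TAX1BP1, a receptor of selective autophagy, at 0.31 ± 0.13. PCBP2 shares 18.8% of its exonic bases with the opposite strand and 13.8% with other genes on its own. Of 3 export genes FLVCR1, a heme exporter in earlier work, fell (-0.60 ± 0.18, adjusted p = 0.0453; not called with RLE scaling, library totals alone, DESeq2 or nuclear protein-coding genes alone), and ABCG2 (0.39 ± 0.23) and CP (0.18 ± 0.48) were not called.

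**Figure D4:**
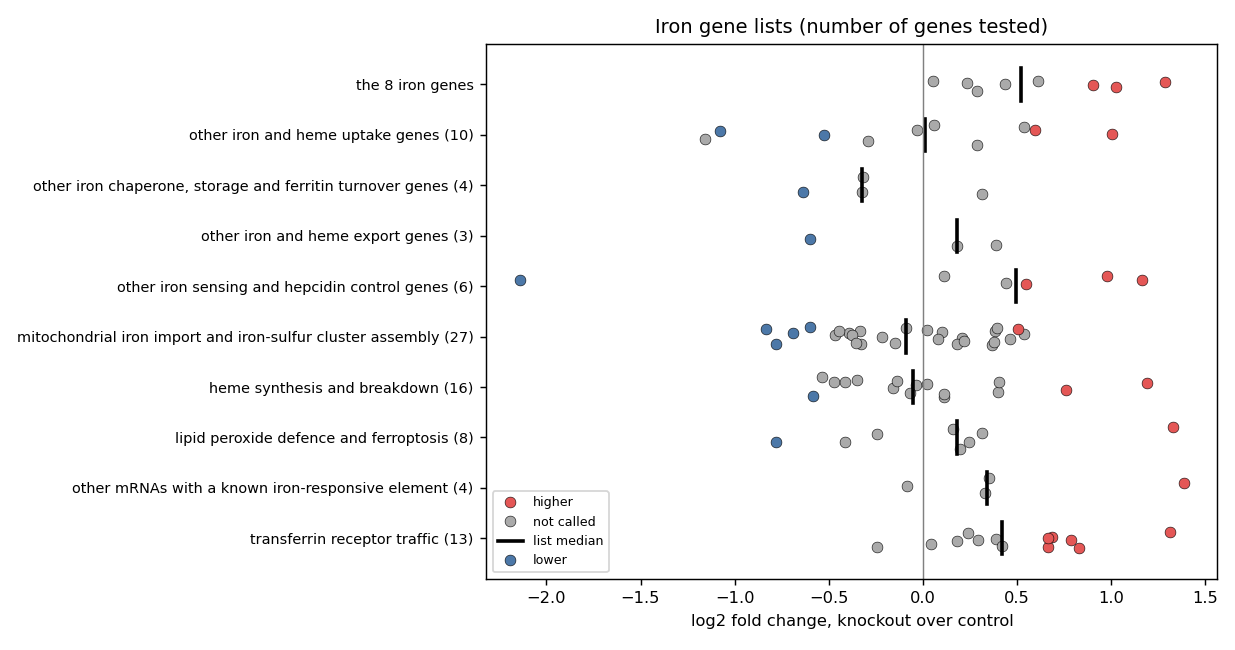
Log2 fold changes, knockout over control, of all tested genes of the 8 members and 9 other iron lists; red and blue points were called higher and lower, grey points were not called, and black bars are list medians. The members, iron sensing and transferrin receptor traffic have medians of 0.52, 0.50 and 0.42, and iron-sulfur assembly and heme genes centre near 0.

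Iron-using pathways showed no common direction, where 9.87% of all genes were called higher and 12.9% lower. Of 27 genes of mitochondrial iron import and iron-sulfur assembly 1 rose and 4 fell, with a median of -0.09. SLC25A37, mitoferrin 1, fell from 250 ± 7.35 to 155 ± 7.04 normalized CPM (-0.69 ± 0.14, adjusted p = 0.0115), as did NDOR1, a reductase of the cytosolic assembly pathway (-0.78 ± 0.16; not called with GC and length offsets), while its partner CIAPIN1 rose (0.50 ± 0.13). Of 16 heme genes 2 rose and 1 fell, with a median of -0.05. FECH, ferrochelatase, which inserts iron into heme, lay at 44.2 and 46.8 normalized CPM in the controls against 119 and 88.5 in the knockouts (1.19 ± 0.17, adjusted p = 0.00472). CPOX rose (0.76 ± 0.16) and PPOX fell (-0.58 ± 0.15; not called with library totals alone), which act one after the other in heme synthesis. The medians of the iron-sulfur and heme lists changed sign with library totals alone (0.020 and 0.054) and with GC and length offsets (0.046 and 0.038). That of the iron-sulfur list also did with nuclear protein-coding genes alone (0.015). In the last 2 settings the iron-sulfur list had 24 tested genes, not 27, so its set of genes changed as well as the setting. The list on lipid peroxide defence and ferroptosis holds genes that protect from this form of cell death and genes that favour it. Of its 8 genes LPCAT3, an acyltransferase that places polyunsaturated chains in phospholipids and is counted among the latter, rose (1.33 ± 0.20, adjusted p = 0.00545) and AIFM2, a ferroptosis suppressor, fell (-0.78 ± 0.22; not called with library totals alone or by DESeq2), with SLC3A2 at -0.42 ± 0.15 (0.0730). Of 4 other mRNAs known to carry an iron-responsive element, EPAS1, which encodes HIF-2 alpha, rose from 3.41 ± 0.07 to 8.94 ± 0.15 (1.39 ± 0.23, adjusted p = 0.00676), and CDC42BPA (0.33 ± 0.19) and CDC14A (0.35 ± 0.22) were not called.

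The genes whose profile over the 4 libraries lay closest to a member were sought among 7880 genes with a mean of at least 20 CPM, by the distance of log2 levels centred on the gene mean. RACGAP1 (distance 0.0239) and CPD (0.0415) were closest to TFRC, LPCAT3 (0.0900) and HINT3 (0.128) to FTH1, and MKNK2 (0.0634) and ID2 (0.0745) to FTL. LPCAT3 had 12.2 and 17.3 normalized CPM in the controls against 38.8 and 35.3 in the knockouts, with the same higher level in control replicate 3 as FTH1. Like FTH1 it has most of its exonic bases, 65.6%, shared with a gene on the opposite strand. That share is not given here for HINT3 or the neighbours of TFRC and FTL, and its part in the profiles was not tested. With 4 libraries many genes have like profiles, and these are descriptions only.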

How the data were processed

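Reads became gene counts through STAR 2.5.2b, Trimmomatic 0.36 and Subread 1.5.2 (featureCounts) on GRCh38, as the submitters' processing notes list them. The values are whole, unscaled counts in a single table that the authors deposited. How strand and multi-mapping reads were treated, and which annotation was used, the sources used here do not give. The 486 rows without a name (0.0191% to 0.0290% of counts) were left out. Counts were filtered with filterByExpr, scaled by TMM and fitted by group alone in edgeR 4.0.16 (R 4.3.3; robust glmQLFit, glmQLFTest), with Benjamini-Hochberg adjustment over all 18043 genes tested; every adjusted p is from this edgeR model unless another tool is named. Normalized CPM are counts scaled to 1e6 by the TMM-adjusted library size. SE is the log2 fold change divided by the root of F. Exons, overlap, GC and mRNA sequences came from GENCODE 29, promoters from RefSeq (GRCh38.p14; 7 of 8 members matched). The fit was tested on simulated counts.

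The members and lists were chosen with earlier results of these data known. The text names the members, CD276, the 3 genes of each list with the smallest p, the 4 ferritin pseudogenes with the highest mean counts and any other that passed the filter, and the 2 nearest profiles of TFRC, FTH1 and FTL. The genes named from the marker lists were chosen after their values were seen, and other genes outside the rule are marked in the text. Alternatives were RLE, upper quartile and total scaling, other filters, DESeq2 1.42.0, limma 3.58.1 voom, robust=FALSE, the replicate block, each library left out, a stricter threshold, protein-coding genes alone, GC and length offsets, no mitochondrial genes and ferritin summed with pseudogenes. The sum of FTH1 with BEST1 was chosen after seeing the data. Where a library is left out, its lone partner is taken to vary as the other group does.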

Additional observations from a re-analysis of the deposited data

How the results depend on the processing

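With every alternative that kept all 4 libraries, TFRC, FTH1 and NCOA4 stayed higher and called, at log2 fold changes of 0.91 to 1.14, 1.25 to 1.42 and 0.83 to 1.02. SLC11A2 changed sign without knockout replicate 1 and with GC and length offsets (-0.034), and ranged from -0.14 to 0.31 with 1 library left out. Leaving out 1 library moved all counts: genes called in either direction numbered 312 to 9198 (4111 with all libraries), members higher 0 to 7 and lower 0 (edgeR), and other iron genes higher 1 to 35 and lower 0 to 26. The low ends came from leaving out a control, which leaves the spread to the knockouts (r = 0.985 between them, 0.994 between the controls); leaving out control replicate 1 gave the lowest. At an adjusted p under 0.01, 1036 genes were called, 3 members higher, and other iron genes 6 higher and 0 lower. Other iron genes called lower numbered 6 with library totals alone and 7 by DESeq2. With library totals the median over all genes was 0.10 on the log2 scale, with 2340 higher and 1781 lower, against 1780 and 2331. The replicate numbers 1 and 3 occur in both groups, but same-numbered libraries did not deviate together (r = -0.0313 across 18043 genes). With the replicate block 4843 genes and 4 members were called, the added member being FTL (0.58, adjusted p = 0.0315). Across genes the log2 fold change had a Spearman correlation of -0.147 with GC content and 0.185 with exonic length. SLC40A1 and STEAP3 had 149 to 440 counts, the fewest of the members.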
